A study of Mus musculus with 4 samples.

Results

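The genes of glycolysis and of the hypoxia response were examined as a group of 34, listed by name: glucose and lactate transporters, the glycolytic enzymes and the kinases that set their pace, the enzymes that decide the fate of pyruvate, the oxygen-sensing factors, and targets of the hypoxia-inducible factor (HIF). All 34 were found among the 16612 gene symbols of the deposited table. Of these, 30 reached 1 RPKM (a read count scaled to transcript length and library size) in at least 1 library and were compared. The libraries come from mouse embryonic fibroblasts (MEFs), cultured cells from the embryo. They were labelled either wild type (Mll1+/+) or Mll1-/-, that is, lacking Mll1 (now Kmt2a), an enzyme that methylates histone H3 at lysine 4. In both genotypes, 1 group received the inflammatory cytokine TNF (10 ng/ml for 4 hr) and the other a control solution. The series' design text gives ng/ml, while the treatment protocol writes the same figure in another unit. Cells of 3 separate treatments were mixed for each group, so each of the 4 groups is 1 library with no replicate. Every difference is therefore a description of 4 libraries, with no test between conditions, and whether each genotype is 1 clone or several is not given in the sources used here.

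Glycolysis splits glucose into pyruvate in the cytosol and yields ATP without oxygen. Hexokinase, phosphofructokinase and pyruvate kinase are its regulated steps, and lactate dehydrogenase turns pyruvate into lactate and restores NAD+. When oxygen is scarce, prolyl hydroxylases of the Egln family no longer mark HIF-1alpha for destruction, and HIF then raises transcription of most glycolytic enzymes and of genes for blood vessel growth, pH control and mitochondrial turnover. Proliferating fibroblasts in culture use glycolysis even with oxygen present.

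The libraries held 27728647 and 27977248 reads (wild type, control and TNF) and 20081869 and 19306506 (Mll1-/-, control and TNF), as recovered from the steps of the RPKM values. Kmt2a itself was at 1.85 and 2.11 RPKM in wild type and at 2.02 and 1.66 in the libraries labelled Mll1-/-. A value over the whole transcript cannot show the loss of a few exons, so this gene did not check the label, and the directions given here between genotypes rest on the labels alone. Cxcl1, a chemokine gene that TNF induces, was at 18.6 RPKM without TNF and 319.9 with it in wild type, and at 9.14 and 67.97 in the libraries labelled Mll1-/-. Of 8 fibroblast markers in the table, all reached 1 RPKM in some library, but Dcn had 0 reads in both wild-type libraries, against 9.16 and 15.2 RPKM in those labelled Mll1-/-. Col3a1 was at 0.531 and 0.296 RPKM in wild type, against 28.1 and 23.5. None of 12 leukocyte, endothelial and epithelial markers reached 1 RPKM. Of 4 skeletal muscle markers, Acta1 was at 175 and 142 RPKM in wild type and 203 and 208 in Mll1-/-, and Des at 1.28 and 0.975 against 3.78 and 2.99. Ckm and Myh3 were nearly absent, with at most 2 reads in any library. Of 3 erythroid markers only Hba-a1 reached 1 RPKM, with 29 and 23 reads in wild type and 2 and 0 in Mll1-/-. The summed level of 6 neural markers, mostly Tubb3, was 9.34 and 8.67 RPKM in wild type and 42.7 and 44.0 in the libraries labelled Mll1-/-. Map2 had 1 and 0 reads in wild type and 903 and 683 in Mll1-/-, while Rbfox3, Syp, Gfap and Snap25 stayed under 1 RPKM. The part of these marker differences in the results below was not tested.

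Of the 30 members compared, 4 differed between the genotypes by the size rule used throughout, a log2 ratio of 1 or more in size on the log2(RPKM + 0.5) scale. Without TNF, Pfkp and Egln3 were higher in Mll1-/-, as were 7.11% of all genes, and Ldhb and Pdk1 were lower, as were 7.99%. Their promoters are shown here, with that of Ldha, the near relative of Ldhb whose level was alike in the 4 libraries. Each run holds 250 bases before and 50 from the transcription start, 5′ to 3′ on the gene's strand, from RefSeq on GRCm38.p6. Where a gene has several starts (Pdk1 and Ldha, 2 each), the window with more CpG is shown. Capitals mark ACGTG or GCGTG on either strand, the core letters of the element that HIF binds. Where CACGTG occurs, the motif matches on both strands and the matches overlap. The positions are chr6:142507908-142508207 (minus strand) for Ldhb, chr2:71872974-71873273 (plus) for Pdk1, chr12:54203825-54204124 (minus) for Egln3, chr13:6648722-6649021 (minus) for Pfkp and chr7:46845554-46845853 (plus) for Ldha.
Ldhb: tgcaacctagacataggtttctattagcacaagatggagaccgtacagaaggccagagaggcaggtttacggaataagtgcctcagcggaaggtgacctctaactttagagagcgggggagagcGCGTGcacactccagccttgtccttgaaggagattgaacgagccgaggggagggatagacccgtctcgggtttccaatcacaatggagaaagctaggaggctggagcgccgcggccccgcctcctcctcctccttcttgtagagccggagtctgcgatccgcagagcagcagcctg
Pdk1: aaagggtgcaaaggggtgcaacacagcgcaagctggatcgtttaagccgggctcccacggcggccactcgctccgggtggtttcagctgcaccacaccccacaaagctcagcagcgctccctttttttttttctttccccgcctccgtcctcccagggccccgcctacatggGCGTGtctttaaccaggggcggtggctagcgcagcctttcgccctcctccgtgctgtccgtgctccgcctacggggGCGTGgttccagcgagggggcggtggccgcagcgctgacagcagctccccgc
Egln3: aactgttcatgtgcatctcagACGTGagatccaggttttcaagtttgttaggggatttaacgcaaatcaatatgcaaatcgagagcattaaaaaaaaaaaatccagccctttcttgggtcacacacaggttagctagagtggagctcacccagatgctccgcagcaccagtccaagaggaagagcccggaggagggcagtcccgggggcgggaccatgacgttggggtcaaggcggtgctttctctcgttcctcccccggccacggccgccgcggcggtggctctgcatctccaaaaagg
Pfkp: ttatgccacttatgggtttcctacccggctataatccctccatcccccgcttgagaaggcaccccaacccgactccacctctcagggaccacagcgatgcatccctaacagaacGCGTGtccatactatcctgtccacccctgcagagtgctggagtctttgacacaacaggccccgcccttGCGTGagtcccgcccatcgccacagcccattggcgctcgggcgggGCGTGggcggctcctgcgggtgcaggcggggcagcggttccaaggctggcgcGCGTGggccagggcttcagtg
Ldha: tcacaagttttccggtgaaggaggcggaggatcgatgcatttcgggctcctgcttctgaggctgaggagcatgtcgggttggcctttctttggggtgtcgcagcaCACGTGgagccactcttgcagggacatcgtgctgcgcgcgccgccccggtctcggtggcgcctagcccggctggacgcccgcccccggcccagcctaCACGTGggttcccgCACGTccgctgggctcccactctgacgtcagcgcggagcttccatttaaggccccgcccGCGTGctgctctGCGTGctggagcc

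By these letters the Ldha window held 5 matches to ACGTG and 2 to GCGTG, with both strands of CACGTG counted, and the Ldhb window held 0 and 1. Pfkp had 0 and 4, Pdk1 had 0 and 2, and Egln3 had 1 and 0. The windows of Ldhb and Egln3, which differed in opposite directions, held 17 and 16 CpG. RefSeq windows matched 32 of the 34 genes (46 windows). ACGTG was found in 56.5% of these windows and in 19.6% of all 32851 promoter windows, and GCGTG in 56.5% and 32.4%. Member windows had a median of 20 CpG, against 7 over all windows, and both motifs contain a CpG. A match is a run of letters and says nothing of binding.

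The abundant members were Gapdh, Pkm, Eno1, Ldha, Pgk1, Pgam1, Tpi1 and Aldoa, most of them enzymes of the lower pathway. Gapdh, which oxidises glyceraldehyde 3-phosphate, was the 7th most abundant of the 11115 named genes compared, by mean RPKM. It had 3293 RPKM in the wild-type control library and 2976 with TNF, and 1799 and 2309 in the corresponding Mll1-/- libraries. Pkm (pyruvate kinase) ranked 57th, Eno1 (enolase) 58th, Ldha (lactate dehydrogenase A) 93rd, Pgk1 (phosphoglycerate kinase) 99th and Pgam1 (phosphoglycerate mutase) 117th. The 10 most abundant members summed to 8880 RPKM in wild type and 7258 in Mll1-/- without TNF. As a share of the RPKM of all named genes this was 1.75% and 1.73%, so the share was alike although the sum differed. With TNF the shares were 1.64% and 1.71%. The regulated enzymes of the upper pathway were far less abundant, with Pfkl at 56.3 to 71.0 RPKM and Hk1 at 52.6 to 70.2.

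**Figure D1:**
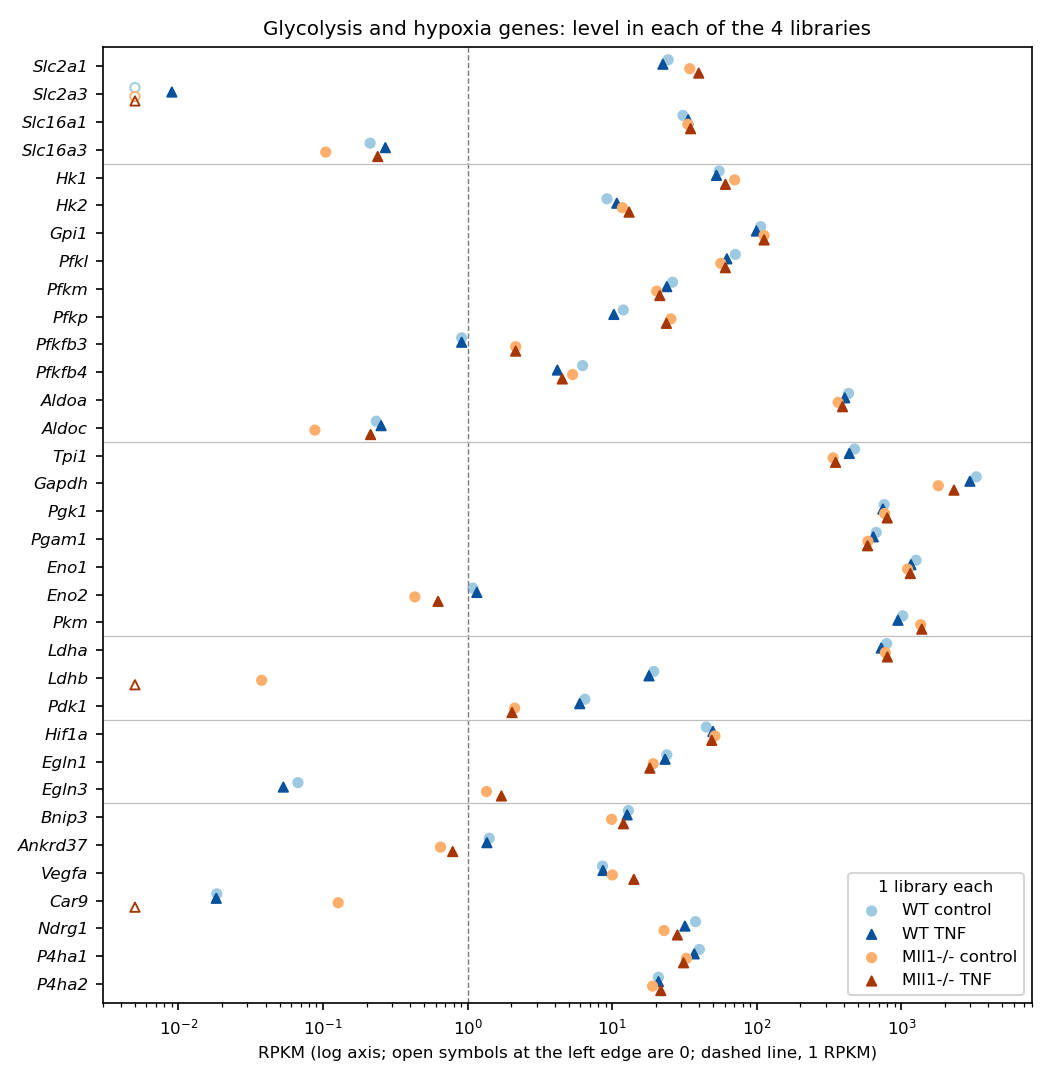
RPKM of the 34 genes in each of the 4 libraries, on a log axis, grouped by role from transport at the top to hypoxia targets at the bottom; each point is 1 library. Most genes have 4 nearly coinciding points, whereas Ldhb lies at 19.4 and 17.95 RPKM in wild type and at 0.0376 and 0 in Mll1-/-, and Egln3 lies below 1 RPKM in wild type and above it in Mll1-/-.

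At the bottom of the range, 4 members stayed under 1 RPKM in every library and were not compared. Slc2a3, the high-affinity glucose transporter, had 1 read in all 4 libraries together. Slc16a3, which exports lactate from hypoxic cells, lay between 0.104 and 0.270 RPKM, the brain aldolase gene Aldoc between 0.0878 and 0.252, and Car9, a carbonic anhydrase that is among the most responsive HIF targets, had 1, 1, 5 and 0 reads. Egln3 and Pfkfb3 passed the filter only through the Mll1-/- libraries, and Ldhb, Eno2 and Ankrd37 only through wild type. The filter thus favours a difference for these genes, among them Ldhb and Egln3, which passed the size rule below.

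The clearest difference between genotypes lay at lactate dehydrogenase. Ldhb encodes the heart-type subunit, which favours the return of lactate to pyruvate. It had 711 reads (19.4 RPKM) in the wild-type control library and 665 (17.95) with TNF, but 1 read (0.0376) and 0 in the Mll1-/- libraries. The ratio was 515-fold without TNF (95% exact counting interval 92.1 to 20367), and with TNF wild type was at least 153-fold higher, a value of 0 being treated as up to 3 reads. Such intervals cover counting error only. In bulk RNA, fewer cells that express a gene and less RNA per cell cannot be told apart. Ldha, the muscle-type subunit and the major one here, was at 791 and 725 RPKM in wild type and 774 and 800 in Mll1-/-, so the groups overlapped. Ldhb thus made up 2.39% and 2.42% of the summed lactate dehydrogenase RPKM in wild type and 0.00486% and 0% in Mll1-/-. The sum of both genes was 811 RPKM in the wild-type control and 774 in the Mll1-/- control.

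Pdk1, a kinase that limits the use of pyruvate within the mitochondrion by inhibiting pyruvate dehydrogenase, was also lower in Mll1-/-. It stood at 6.46 and 5.96 RPKM in wild type and at 2.11 and 2.03 in Mll1-/-, ratios of 3.06-fold (2.63 to 3.56) without TNF and 2.94-fold (2.52 to 3.44) with it. Both wild-type libraries lay above both Mll1-/- libraries. Of its relatives, which are not members, Pdk4 was lower in the same way (3.13 and 4.35 against 0.692 and 0.810 RPKM). Pdk3, the most abundant form, was at 17.2 and 16.6 against 17.9 and 17.8. Pdk1 therefore held 23.7% of the summed kinase RPKM in the wild-type control and 10.1% in the Mll1-/- control, and Pdk3 held 63.2% and 85.2%.

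**Figure D2:**
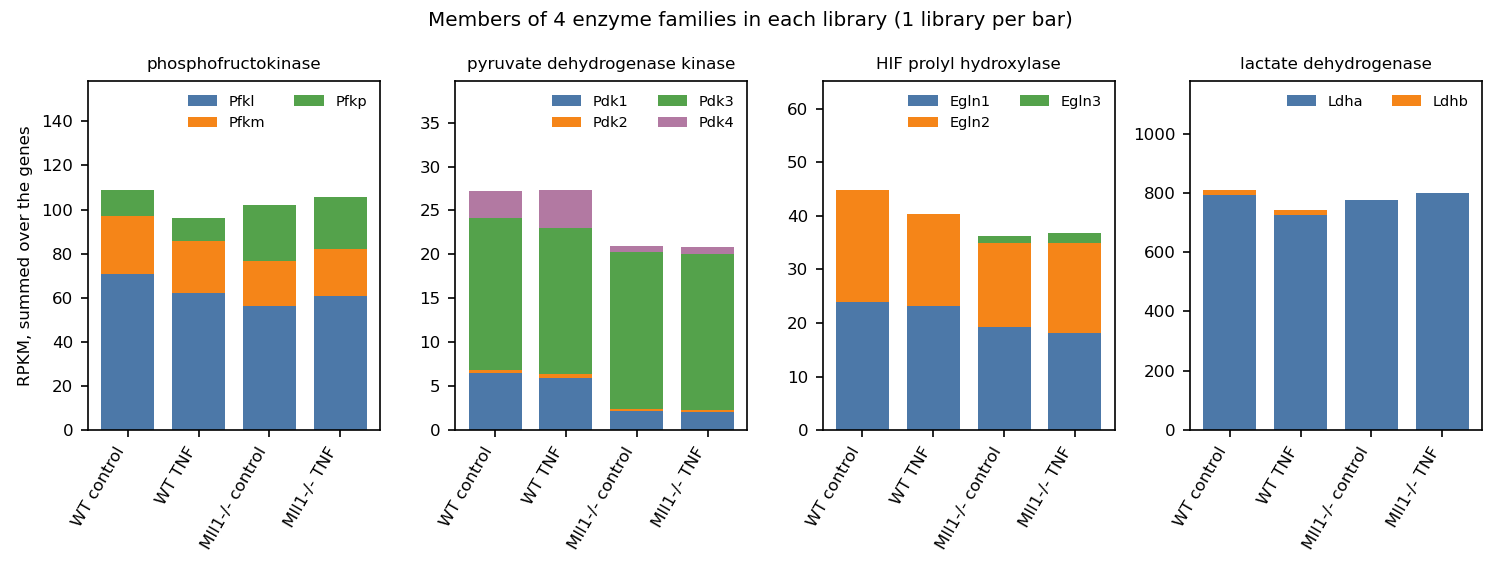
Summed RPKM of 4 enzyme families, 1 bar per library and 1 colour per gene, with bars starting at 0. The Pfkp part is larger in Mll1-/-, the Pdk1 and Pdk4 parts are smaller beside a similar Pdk3 part, Egln3 appears only as a thin band in Mll1-/-, and the Ldhb band is visible only in wild type.

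In the upper pathway, Pfkp, the platelet form of phosphofructokinase, was higher in Mll1-/-. Its level was 11.9 and 10.3 RPKM in wild type and 25.4 and 23.7 in Mll1-/-, 2.13-fold (1.99 to 2.29) without TNF and 2.31-fold (2.14 to 2.49) with it. The liver form Pfkl was at 71.0 and 62.1 against 56.3 and 60.6 RPKM, and the muscle form Pfkm at 26.1 and 23.8 against 20.3 and 21.3. Pfkp was 10.9% of the 3 forms in the wild-type control and 24.9% in the Mll1-/- control, while the sum was 109.0 and 102.1 RPKM. Pfkp overlaps Pitrm1 on the other strand, and reads of the pair cannot be separated because strand is not stated. With the trend of the ratio with transcript length removed (below), Pfkp was at a log2 difference of 0.90 without TNF, no longer past 1, and at 1.12 with TNF.

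Pfkfb3 makes fructose 2,6-bisphosphate, the main activator of phosphofructokinase. It stood at 0.909 RPKM in both wild-type libraries (118 and 119 reads) and at 2.15 in both Mll1-/- libraries (202 and 194 reads). The ratio was 2.36-fold (1.87 to 2.99) without TNF, which on the log2(RPKM + 0.5) scale is 0.91 and so short of the size rule. With a smaller pseudocount of 0.1 it is 1.16. Pfkfb4, its relative with more phosphatase activity, was at 6.24 and 4.17 against 5.32 and 4.51 RPKM, with overlap. Hexokinase genes had log2 differences from 0.20 to 0.35: Hk1 was at 54.9 and 52.6 against 70.2 and 60.6 RPKM, and the inducible Hk2 at 9.20 and 10.8 against 11.8 and 13.1. Hk1 made up 85.6% of the pair in both control libraries. Gpi1 (phosphoglucose isomerase, 99.3 to 112 RPKM) and Aldoa (365 to 431 RPKM) spanned narrow ranges.

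Among the 7 enzymes of the lower pathway no member passed a log2 ratio of 1. Beside them, 7.11% of all genes were higher and 7.99% lower without TNF, and 6.71% and 4.50% with it. Gapdh came nearest of the abundant enzymes, 1.83-fold lower in the Mll1-/- control (log2 -0.87) and 1.29-fold lower with TNF (-0.37). Removal of the length trend gave -0.66 and -0.32. Tpi1, which interconverts the triose phosphates, was at 474 and 436 RPKM in wild type and 337 and 350 in Mll1-/-. Pkm, the last step, went the other way, at 1021 and 946 against 1360 and 1382 RPKM (log2 0.41 and 0.55). Pgk1 spanned a narrow range, with 760, 744, 765 and 798 RPKM. Eno1 was at 1262 and 1164 against 1102 and 1153 RPKM, and Pgam1 at 669 and 639 against 587 and 583. The neuronal enolase Eno2, with 80 and 86 reads in wild type and 23 and 32 in Mll1-/-, was 2.52-fold lower without TNF (1.57 to 4.20). It was lower although the neural marker sum was higher, and the pseudocount held its log2 ratio at -0.77. GENCODE M21 lists pseudogenes or copies named after 6 members (Gapdh, Aldoa, Pgk1, Pgam1, Ldha and Eno1). How reads shared with them were counted is not given in the sources used here, so those levels are uncertain. Copies under other names could not be matched, so other members may share reads as well.

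The transporters of glucose and lactate differed less. Slc2a1, the basal glucose transporter GLUT1, was at 24.3 and 22.4 RPKM in wild type and at 34.4 and 39.6 in Mll1-/-, 1.41-fold (1.32 to 1.51) and 1.77-fold (1.65 to 1.89). The groups did not overlap. Slc16a1, the monocarboxylate transporter MCT1, was alike in all libraries (30.8, 33.5, 33.3 and 34.8 RPKM).

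Of the oxygen-sensing genes, the factor itself was steady and a hydroxylase was not. Hif1a had 44.7 and 49.7 RPKM in wild type and 51.3 and 48.8 in Mll1-/-, with overlap between the groups. HIF-1alpha is controlled mainly as a protein, which RNA does not show. Egln1 (PHD2), the main HIF hydroxylase, was at 23.8 and 23.2 against 19.2 and 18.2 RPKM. Egln3 (PHD3), itself a HIF target, had 5 and 4 reads in wild type (0.0670 and 0.0531 RPKM) and 73 and 89 in Mll1-/- (1.35 and 1.71). The ratio was 20.2-fold (8.26 to 63.9) without TNF and 32.2-fold (12.2 to 121) with TNF, and log2 values of 1.71 and 2.0 understate it because of the pseudocount. Even so, Egln3 made up only 3.72% of the summed hydroxylase RPKM in the Mll1-/- control, with Egln1 at 52.9% and Egln2, not a member, at 43.3%.

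Of the HIF targets listed as such, none of the 6 compared passed the size rule. Over all genes 7.11% were higher and 7.99% lower without TNF, and 6.71% and 4.50% with it. Among so few genes, a count of 0 does not set the HIF targets apart. Bnip3, a mitophagy receptor, was at 12.9 and 12.7 RPKM in wild type and 9.90 and 11.9 in Mll1-/-. Ndrg1, a stress-responsive gene, was at 37.7 and 31.8 against 22.8 and 28.2, 1.65-fold lower without TNF and 1.13-fold lower with it. Ankrd37, with 36 and 35 reads against 12 and 14, was 2.17-fold lower without TNF (1.105 to 4.59) and 1.73-fold lower with it, where the interval (0.905 to 3.47) includes 1. With the length trend removed its log2 ratio was -0.46 in both. P4ha1 and P4ha2, prolyl hydroxylases for collagen, lay between 31.1 and 40.1 and between 19.0 and 21.7 RPKM. Vegfa, the vascular growth factor, was at 8.56 and 8.63 in wild type and 10.0 and 14.1 in Mll1-/-. Of the 6 hypoxia targets compared, 5 had a negative log2 ratio without TNF and 4 with it, beside 55% and 54.8% of all genes. With the sums of RPKM made equal without the 20 most abundant genes, it was 3 in each.

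**Figure D3:**
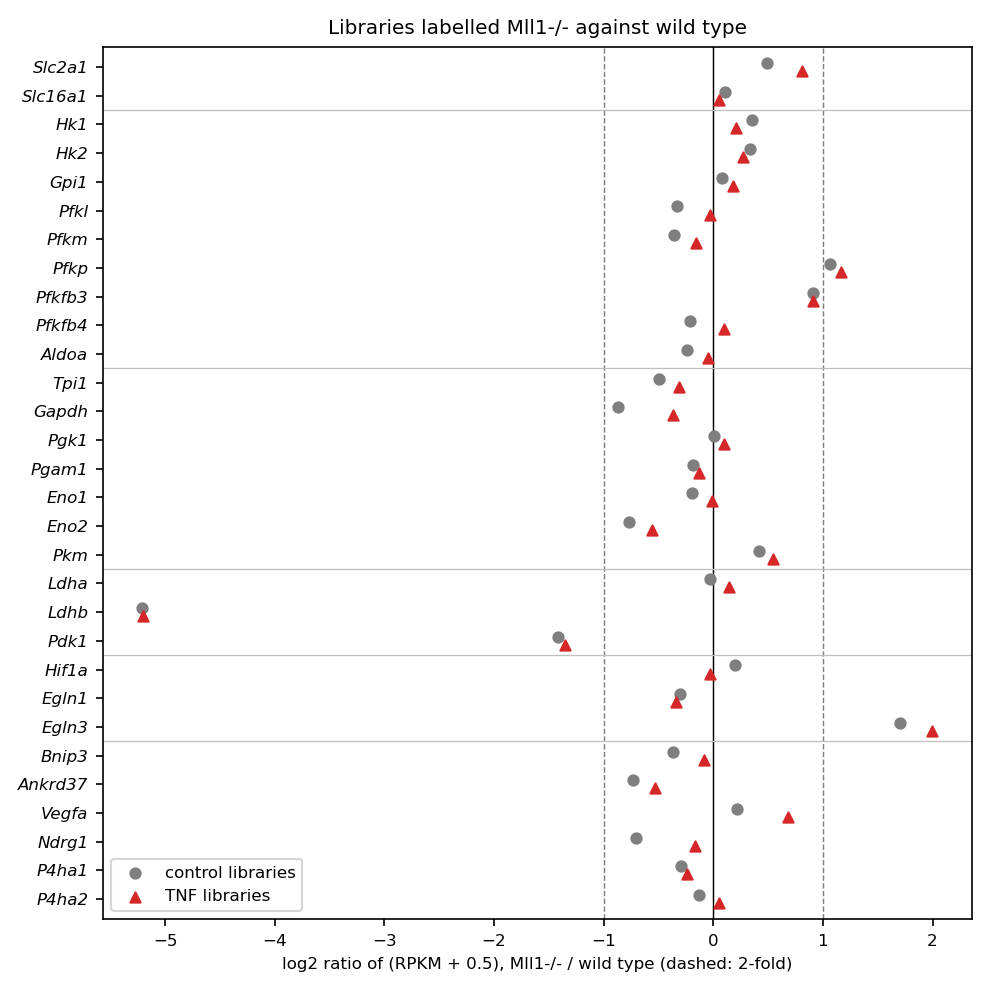
Log2 ratio of RPKM + 0.5, Mll1-/- over wild type, for the 30 genes compared; circles are the control libraries, triangles the TNF libraries, and dashed lines mark a 2-fold difference. Ldhb (-5.21 and -5.21) and Pdk1 (-1.41 and -1.35) lie left of the lower line, and Pfkp (1.06 and 1.17) and Egln3 (1.71 and 2.0) right of the upper.

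Counted by the size rule, 2 of 30 members were higher and 2 lower in Mll1-/- without TNF. Over all 14386 genes and unnamed transcripts compared, 7.11% were higher and 7.99% lower. With TNF the same 4 genes passed, 2 higher and 2 lower, beside 6.71% and 4.50% of all genes. The members' counts lie near these shares. Their median log2 ratio was -0.19 without TNF, against -0.07 over all genes, and -0.02 with TNF, against -0.05. The 2 pairs of libraries have none in common. Of 30 members, 11 had a positive ratio in both pairs, 15 a negative one in both, and 4 had opposite signs. That is 18 below 0 without TNF and 16 with it, where 55% and 54.8% of all genes lay below 0. How many of all genes had the same sign in both pairs was not counted.

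Small ratios depended on the scaling. When the sums of RPKM were made equal without the 20 most abundant genes, the median of all genes shifted by 0.28 without TNF and by 0.10 with TNF. Under that scaling 7 members changed sign without TNF (Pfkfb4, Aldoa, Pgam1, Eno1, Ldha, P4ha1 and P4ha2), and 5 with TNF (Pfkl, Aldoa, Eno1, Hif1a and Bnip3), which left 19 above and 11 below 0 in each. The 4 genes past the size rule stayed past it. Over all genes the split without TNF was 1023 higher and 1150 lower, and 1531 and 621 under that scaling. With the length trend removed it was 1081 and 803. Ratios also varied with transcript length. In deciles of length over all genes, the median ratio without TNF was -0.53 in the shortest and 0.25 in the longest, and with TNF -0.17 and 0.01. The 10 members under 2000 bases, which include most of the lower pathway, had a median of -0.31 without TNF and the 20 longer ones 0.09. Ldhb (1324 bases) and Pdk1 (5137 bases) were at -5.01 and -1.64 with the trend removed.

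**Figure D4:**
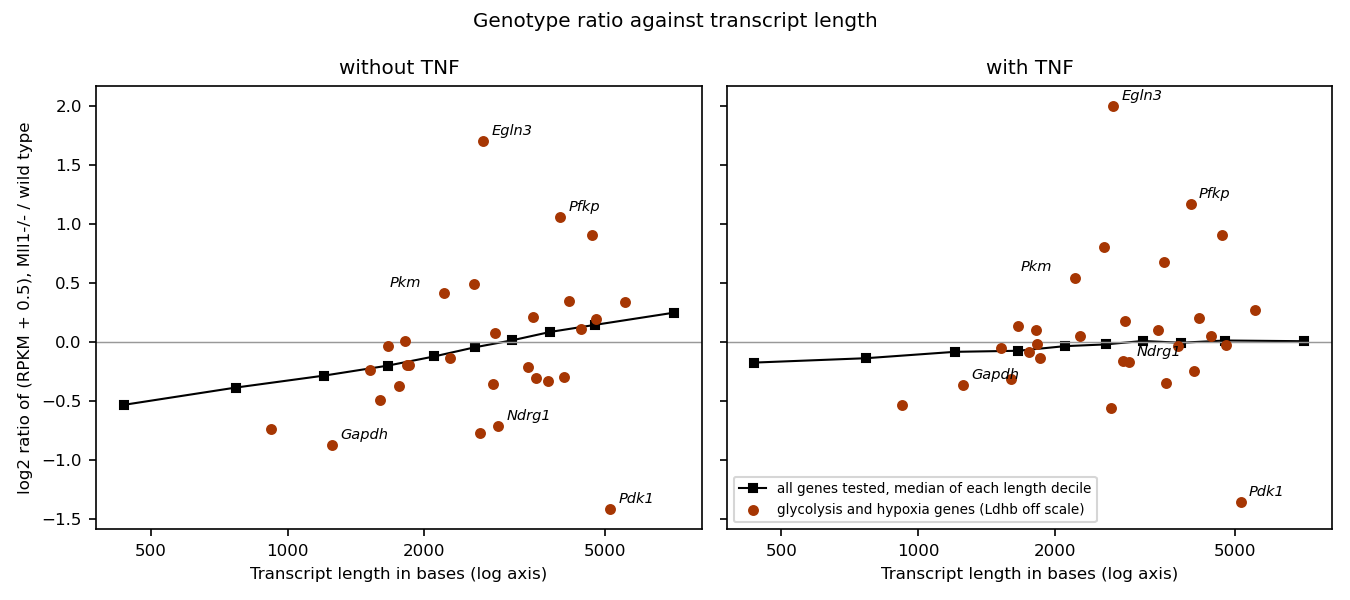
Log2 genotype ratio of 29 of the 30 genes (points; Ldhb lies off scale) against transcript length in bases on a log axis, without TNF (left) and with TNF (right); black squares are medians of the length deciles of all genes. The squares climb from -0.53 to 0.25 on the left and less on the right, from -0.17 to 0.01. Pdk1, Pfkp and Egln3 lie away from the squares in both panels.

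In wild-type cells the members differed little between the TNF and control libraries. None of 30 members passed the size rule in either direction, where 0.521% of all genes were higher and 0.0556% lower. The lowest was Pfkfb4, which had 6.24 RPKM without TNF and 4.17 with it, 1.496-fold lower (1.31 to 1.70). Hk2 was the highest, with 9.20 and 10.8 RPKM (1.17-fold, 1.09 to 1.26). Hif1a was at 44.7 and 49.7 RPKM (1.11-fold, 1.07 to 1.15), a small difference beside those of Cxcl1 and of the NF-kB inhibitor gene Nfkbia (16.4 and 66.4 RPKM). Of the 30, 24 had a ratio below 0 and 6 above, with a median of -0.09 against -0.02 for all genes, of which 54.7% lay below 0. Of the 16 genes of the upper and lower pathway compared, 14 were among the 24, at ratios such as -0.12 for Tpi1 and -0.12 for Eno1. The 14 include Pfkfb3 at only -0.0005. Ldha, grouped with the fate of pyruvate, was at -0.13.

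In the libraries labelled Mll1-/-, none of 30 members passed the size rule either, beside 0.688% of all genes higher and 0.160% lower. On the log2(RPKM + 0.5) scale Vegfa had the highest ratio, with 10.0 RPKM without TNF and 14.1 with it (1.41-fold, 1.28 to 1.56), and 8.56 and 8.63 in wild type. On that scale Gapdh followed at 1799 and 2309 RPKM (1.28-fold, 1.27 to 1.30), then Ndrg1 at 22.8 and 28.2 (1.24-fold, 1.15 to 1.33). By reads alone Eno2 was higher, at 23 and 32 (1.447-fold), with an interval of 0.821 to 2.59 that includes 1. Pfkfb4 was again lowest, at 5.32 and 4.51 RPKM (1.18-fold lower, 1.009 to 1.38). Of the 30, 19 ratios were above 0 and 11 below, with a median of 0.06 against 0.02 for all genes. Under the scaling without the 20 most abundant genes the split turned to 9 above and 21 below, and the median of all genes shifted by -0.15. The split of all genes was 99 higher and 23 lower, 73 and 38 under that scaling, and 64 and 57 with the length trend removed.

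**Figure D5:**
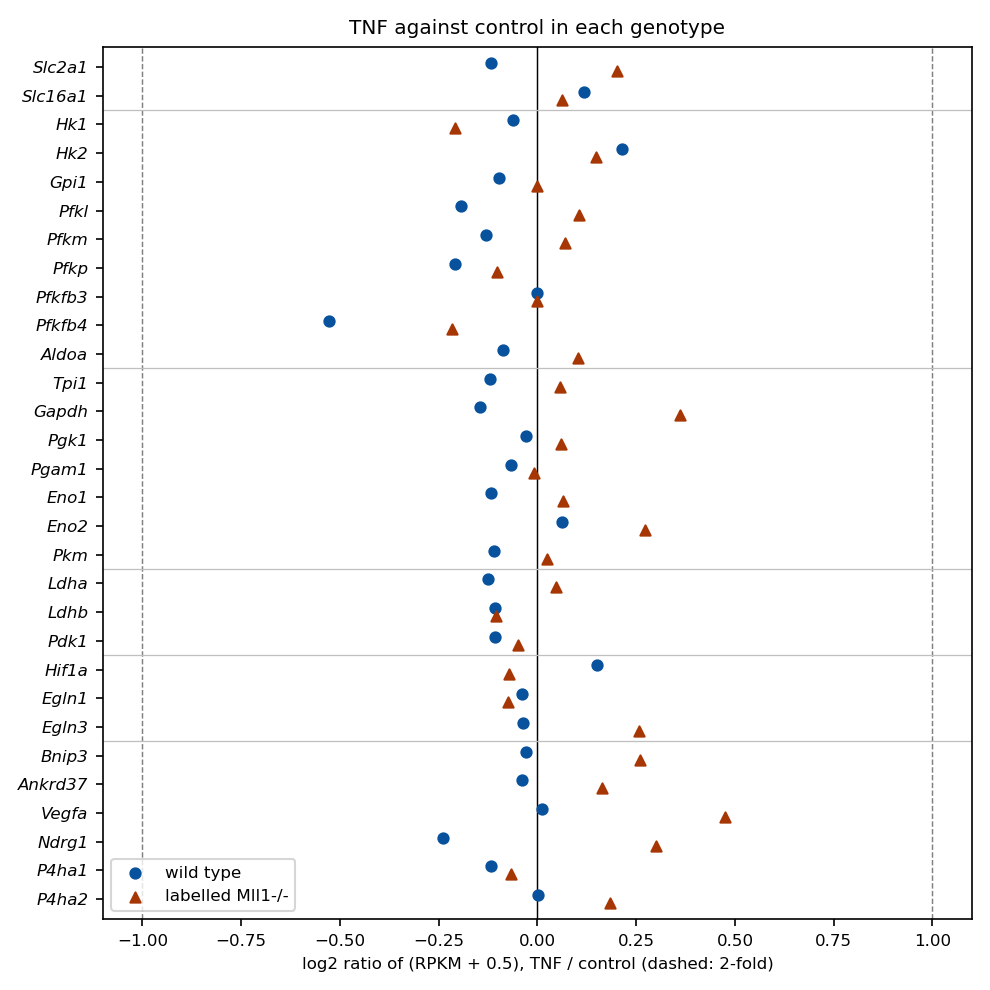
Log2 ratio of RPKM + 0.5, TNF over control, for the 30 genes in wild type (circles) and in the libraries labelled Mll1-/- (triangles); dashed lines mark a 2-fold difference. All points lie between the dashed lines, from -0.53 (Pfkfb4, wild type) to 0.47 (Vegfa, Mll1-/-).

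The difference between the log2 TNF ratios, Mll1-/- minus wild type, was within 1 for all 30 members, beside 0.758% of all genes at 1 or more and 0.424% at -1 or less. Over all genes that is 109 and 61, against 62 and 103 under the scaling without the 20 most abundant genes and 39 and 133 with the length trend removed. On the log2(RPKM + 0.5) scale Ndrg1 had the highest value, 0.54 (0.55 from reads, counting interval 0.42 to 0.68), then Gapdh at 0.51 (0.48 to 0.53) and Vegfa at 0.46 (0.48 from reads, 0.29 to 0.68). With the length trend removed these were 0.58, 0.34 and 0.55. From reads Egln3 was higher, at 0.68, with an interval of -1.27 to 2.63 that includes 0. Hif1a had the lowest, -0.22 (-0.30 to -0.15), and -0.06 with the trend removed.

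Further genes of the HIF pathway differed between genotypes in both directions. Of 31 compared, 5 were higher and 3 lower in Mll1-/- by the size rule without TNF (median -0.03), beside 7.11% and 7.99% of all genes. With TNF it was 5 and 2, beside 6.71% and 4.50%, and 0 passed that rule for TNF in either genotype. Of the 5 higher, 3 (Ak4, Epas1 and Stc2) passed the filter only through Mll1-/-, and 1 of the lower (Tmem45a) only through wild type, so the filter favours their difference. Ak4, a mitochondrial adenylate kinase and HIF target, was at 0.258 and 0.270 RPKM in wild type and 3.31 and 3.76 in Mll1-/-. Epas1, which encodes HIF-2alpha, had 5 and 9 reads in wild type and 176 and 155 in Mll1-/- (48.6-fold without TNF, 20.4 to 152). At 1.64 RPKM it was still only 3.09% of the sum of Hif1a and Epas1 in the Mll1-/- control. Lowest were Tmem45a (2.18 and 2.09 against 0.221 and 0.211 RPKM) and Ero1a, an oxidase of protein folding in the endoplasmic reticulum (52.2 and 57.5 against 18.5 and 19.6).

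Of 22 further genes for glycolysis, pyruvate handling and glucose entry, 5 were higher and 2 lower in Mll1-/- without TNF (median -0.05), beside 7.11% and 7.99% of all genes, and 5 and 1 with TNF, beside 6.71% and 4.50%. The filter favours these counts too, as 4 of the 5 higher (G6pc3, Ldhd, Slc2a10 and Slc2a6) passed it only through Mll1-/- and 1 of the lower (Pdk4) only through wild type. G6pc3, a glucose-6-phosphatase, had 0 and 2 reads in wild type and 216 and 211 in Mll1-/-, at least 99.4-fold higher without TNF. Ldhd, the mitochondrial D-lactate dehydrogenase, had 0 reads in both wild-type libraries and 38 and 45 in Mll1-/-, at least 17.5-fold higher without TNF. Pdk4, described above, and Pdhb, a subunit of pyruvate dehydrogenase (62.7 and 61.4 against 29.1 and 37.8 RPKM), were lowest. The 1 gene of this list past the size rule for TNF was the transporter Slc2a6 in Mll1-/- cells (0.886 and 2.91 RPKM, 3.28-fold, 2.26 to 4.86), beside 0.688% of all genes higher. Slc2a6 passed the filter only through the Mll1-/- TNF library, so the filter favours this difference too. It is named because the count is 1, and was chosen after its values were seen.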

How the data were processed

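RNA of 4 libraries was sequenced, 1 per group, each from 3 pooled treatments per the series' design text. The authors deposited RPKM values for 27344 RefSeq transcript entries, per the file headers. Of the authors' tools, the submitters' processing notes name TopHat and DESeq, without version or role. The genome build, like the counting program and strand, is not given in the sources used here.

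Entries were named through RefSeq accessions (GRCm38.p6 table, 20849 entries, and GENCODE M21, 102). The entry with the highest mean RPKM stood for each symbol. Whole reads in all 4 libraries, within 0.0001, were recovered for 99.99% of entries from the steps of the values, which gave library totals and transcript lengths. Where a GENCODE length lay near a multiple, reads were multiplied to match it (1227 entries). Of 20658 entries with a GENCODE length, 79.0% had a recovered length within 10% of it. Where a recovered length is wrong, the reads and counting intervals of that entry may be off.

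Ratios used log2(RPKM + 0.5), a filter of 1 RPKM in at least 1 library, and a size rule of 1. Counting intervals are 95% exact binomial (Clopper-Pearson, SciPy 1.17.1), or normal for the difference of responses. The length trend was a lowess fit (statsmodels 0.14.6). The computations were tested on simulated data. Values are given for members past the size rule, for the highest and lowest in each role, and for Hif1a. Of each further list the 2 highest and 2 lowest genotype ratios without TNF are named. Members and lists were chosen with earlier results of these data known. GENCODE M21 shows a gene on the other strand overlapping 15 of the 34 members. Alternatives tried were other pseudocounts, filters, scalings, entries and size rules.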

Additional observations from a re-analysis of the deposited data

Results flagged for a closer look

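In 11 of the 30 members compared, the TNF ratio lay below 1 in one genotype and above 1 in the other, with both counting intervals excluding 1. The difference itself has no replicate test, and how many of all genes meet this rule was not counted. For abundant genes such intervals exclude 1 at small shifts, as for Pgk1 in wild type (0.980-fold, 0.966 to 0.994). The differences of log2 ratios, Mll1-/- minus wild type, were 0.54 for Ndrg1, 0.51 for Gapdh, 0.32 for Slc2a1, 0.30 for Pfkl, 0.19 for Aldoa, 0.18 for Tpi1, 0.18 for Eno1, 0.17 for Ldha, 0.13 for Pkm, 0.09 for Pgk1 and -0.22 for Hif1a. In 10 of the 11 the higher ratio was in Mll1-/-. Over all genes the difference lay above 0 for 7660 and below 0 for 6726. Of the 11, 6 have transcripts under 2000 bases, and with the length trend removed 4 still had ratios of opposite sign. With the sums of RPKM made equal without the 20 most abundant genes, 4 (Slc2a1, Gapdh, Hif1a and Ndrg1) were still opposite and the other 7 were not.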

How the results depend on the processing

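For the TNF ratios of each genotype, and for their difference, 0 members passed the size rule under every alternative run. Between genotypes without TNF, the 2 higher members became 1 with a filter of 5 RPKM, which leaves out Egln3, and 1 with the length trend removed, which leaves out Pfkp. They became 3, by adding Pfkfb3, with a pseudocount of 0.1, with equal sums without the 20 most abundant genes, from reads without a pseudocount and with a size rule of 1.5-fold. The 2 lower members became 4 with a pseudocount of 0.1 and 4 from reads without a pseudocount, both times by adding Eno2 and Ankrd37, and 6 with a size rule of 1.5-fold. With TNF, the 2 higher became 1 with the filter of 5 RPKM, 3 (again with Pfkfb3) with the pseudocount of 0.1 and from reads, and 5 with the 1.5-fold rule, and the 2 lower stayed 2. No called member changed direction. No paired analysis was possible because each group is 1 library and the labels give no replicate numbers to pair. Eno2, Ankrd37 and Egln3 rest on few reads, which limits their precision.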

Other observations

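The pathways that flank glycolysis were counted by the same size rule. Of 7 genes of the pentose phosphate pathway, 1 was lower in Mll1-/- by the size rule without TNF and 0 with it, beside 7.99% and 4.50% of all genes (median log2 ratio -0.37 and -0.33, against -0.07 and -0.05 for all genes). In each pair 5 of the 7 had a ratio below 0, as did 55% and 54.8% of all genes. Pgls, which opens the lactone ring of 6-phosphogluconolactone, was at 42.6 and 37.2 RPKM in wild type and 19.2 and 24.99 in Mll1-/-, and transketolase (Tkt) at 110.4 and 101.1 against 59.9 and 68.2. Pgd, the next dehydrogenase of the oxidative branch, was at 112.6 and 118.8 against 171.4 and 180.1, and transaldolase (Taldo1) at 70.9 and 65.7 against 93.5 and 113.3. For Pgls, whose transcript is 883 bases long, the log2 ratio without TNF was -1.13, and -0.85 with the length trend removed.

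None of 17 genes of the TCA cycle passed the size rule in any comparison. Between genotypes 7.11% of all genes were higher and 7.99% lower without TNF, and 6.71% and 4.50% with it. Without TNF 13 of the 17 had a ratio below 0, beside 55% of all genes, and the 4 above 0 were at most 0.05. The median was -0.24, and -0.14 with the length trend removed, against -0.07 for all genes. With TNF 11 of the 17 lay below 0, beside 54.8% of all genes. The median of the 17 was then -0.04, against -0.05 for all genes. Neither this list nor the pentose phosphate list was counted under the scaling without the 20 most abundant genes. That scaling shifted the median of all genes by 0.28 without TNF and by 0.10 with TNF. Mdh2 (malate dehydrogenase) was lowest at 364.8 and 341.9 RPKM in wild type and 205.6 and 240.8 in Mll1-/-, followed by Idh2 (84.3 and 75.7 against 52.6 and 65.3). Citrate synthase (Cs) was highest, at 248.7 and 235.6 against 257.4 and 258.0, followed by Ogdh (39.2 and 39.8 against 40.1 and 39.3).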
